A study of Mus musculus with 16 samples.

Results

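The genes described here code for the proteins that coat lipid droplets and the lipases that empty them: the perilipins Plin1, Plin2, Plin3, Plin4 and Plin5, the droplet fusion protein Cidec, the lipases Pnpla2, Lipe and Mgll, and the lipase activator Abhd5. They were chosen by symbol with earlier results of these data known, and all 10 were found among the 27179 rows of the deposited table. Bulk RNA-seq had been made from cells of C57BL/6 mice at postnatal day 7, sorted by flow cytometry from epididymal white fat as positive for Pdgfrb, a growth factor receptor found on adipose progenitors and mural cells. The sort gave 4 populations, adipocyte precursor cells (APCs), fibro-inflammatory progenitors (FIPs), mesothelial-like cells (MLCs) and smooth muscle cells (SMCs), each with 4 libraries. No treatment or genetic change is named for any population, and all share strain, age, depot and the Pdgfrb sort. The labels do not say whether the 4 libraries of a population came from separate animals or sorts, so the replicate spread behind each p-value may be only technical.

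A lipid droplet is a store of triglyceride wrapped in a phospholipid monolayer, and the perilipins on its surface control which enzymes reach the fat inside. Plin1 is the perilipin of fat cells: at rest it holds Abhd5 at the droplet, and on phosphorylation by protein kinase A it lets Abhd5 go to activate Pnpla2. Pnpla2 then starts the breakdown of triglyceride, Lipe acts on the diglyceride that results, and Mgll splits the remaining monoglyceride into glycerol and a fatty acid.

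Values are normalized counts, that is reads per gene divided by a size factor for each library, unless a scale is named. The libraries held from 9.20 to 27.5 M reads (median 21.6 M), and APCs replicate 4 (11.2 M) and SMCs replicate 3 (9.20 M) were the shallowest. A gene was called different when limma on log2(value + 1) gave a Benjamini-Hochberg adjusted p under 0.05 over 15024 tested genes and a fold change of at least 2, and fold changes are on that scale. Of the 10 genes, 9 passed the filter for the test (a value of at least 10 in at least 4 libraries) and Plin5 did not. The population names were checked against marker genes. The 8 mesothelial markers summed to 125585 to 129158 in the MLCs and to at most 15598 elsewhere, the 7 smooth muscle markers to 10030 to 15161 in the SMCs and 3729 to 10583 elsewhere, and the 5 fibro-inflammatory markers to 31462 to 34598 in the FIPs and at most 11566 elsewhere. Of the smooth muscle markers, Acta2, Cnn1, Tagln, Lmod1 and Des were highest on average in the SMCs. Mylk was higher in the APCs (5006 ± 395, SMCs 3669 ± 411), and Myh11 was alike in MLCs (1288 ± 79.9) and SMCs (1262 ± 412). The 5 precursor markers summed to 68433 to 78313 in the APCs, 87669 to 90849 in the FIPs and 69196 to 81709 in the SMCs. This sum did not single out the APCs. Of its genes, Pparg (1282 ± 56.3, FIPs 444 ± 47.7) and Pdgfrb (4717 ± 166, SMCs 3787 ± 411) were highest in the APCs. Dlk1 and Cd34 were highest on average in the FIPs, and Pdgfra in the SMCs (23838 ± 1968, APCs 20555 ± 248). APCs replicate 4 held Acta2, a smooth muscle actin, at 2388 where the other APC libraries held 156 to 221.

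The reference sequence just upstream of the gene starts is shown for 4 of the coat genes with unlike levels across the populations: Plin1 and Cidec, highest in the APCs, Plin2, highest there by a smaller margin, and Plin3, the most even. The RefSeq promoter table (GRCm38.p6) gave windows of 250 bases before the start for all 10 genes, 14 windows in all. The stretches shown lie on the minus strand and are written 5′ to 3′ along the gene, only as far as the first annotated exon. Capitals mark matches, on either strand, to AGGTCA (a nuclear receptor half-site), TTGCNNAA (a C/EBP palindrome), CCAAT or GGGCGG (a GC box).
Plin1, chr7:79732905-79733026: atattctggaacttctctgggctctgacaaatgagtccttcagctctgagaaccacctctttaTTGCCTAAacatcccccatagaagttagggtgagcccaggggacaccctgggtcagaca
Cidec, inner start, chr6:113434765-113435014: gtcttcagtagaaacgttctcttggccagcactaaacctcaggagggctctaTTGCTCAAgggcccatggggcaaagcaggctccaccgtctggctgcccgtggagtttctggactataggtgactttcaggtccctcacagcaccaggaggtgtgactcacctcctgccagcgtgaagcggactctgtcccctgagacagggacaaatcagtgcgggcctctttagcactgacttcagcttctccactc
Cidec, outer start, chr6:113435761-113436010: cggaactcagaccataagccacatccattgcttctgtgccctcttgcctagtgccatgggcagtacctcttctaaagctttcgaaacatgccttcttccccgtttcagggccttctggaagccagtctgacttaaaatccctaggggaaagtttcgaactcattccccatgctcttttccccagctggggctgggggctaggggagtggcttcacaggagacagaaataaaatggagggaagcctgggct
Plin2, chr4:86670218-86670309: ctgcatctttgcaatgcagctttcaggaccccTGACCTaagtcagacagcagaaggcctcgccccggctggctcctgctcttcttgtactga
Plin3, chr17:56290512-56290761: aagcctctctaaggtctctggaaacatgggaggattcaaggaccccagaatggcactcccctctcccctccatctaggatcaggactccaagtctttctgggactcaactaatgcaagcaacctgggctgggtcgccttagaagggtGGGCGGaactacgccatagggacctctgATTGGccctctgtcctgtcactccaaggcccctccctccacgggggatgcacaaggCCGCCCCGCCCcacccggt

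TTGCNNAA was found in windows of 2 genes, Plin1 and Cidec, and in 9.56% of all 32851 promoter windows. The Plin1 window held a further match closer to its start, in a stretch annotated as exon and so not printed. AGGTCA was found in windows of Plin2, Plin5 and Abhd5 and in 14% of all windows. The direct repeat of this half-site with a spacer of 1 base, the element bound by PPAR factors, was in none of the 14 windows and in 0.0335% of all. CCAAT was in 4 of the 14 windows (33.8% of all), GGGCGG in 7 (32.7% of all), the E-box CACGTG in windows of Lipe and Mgll (6.02% of all), and TATAAA in none (12.4% of all). GGGCGG matches overlapped one another in the Plin3 window. These are matches of letters and say nothing of which factors bind there.

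**Figure D1:**
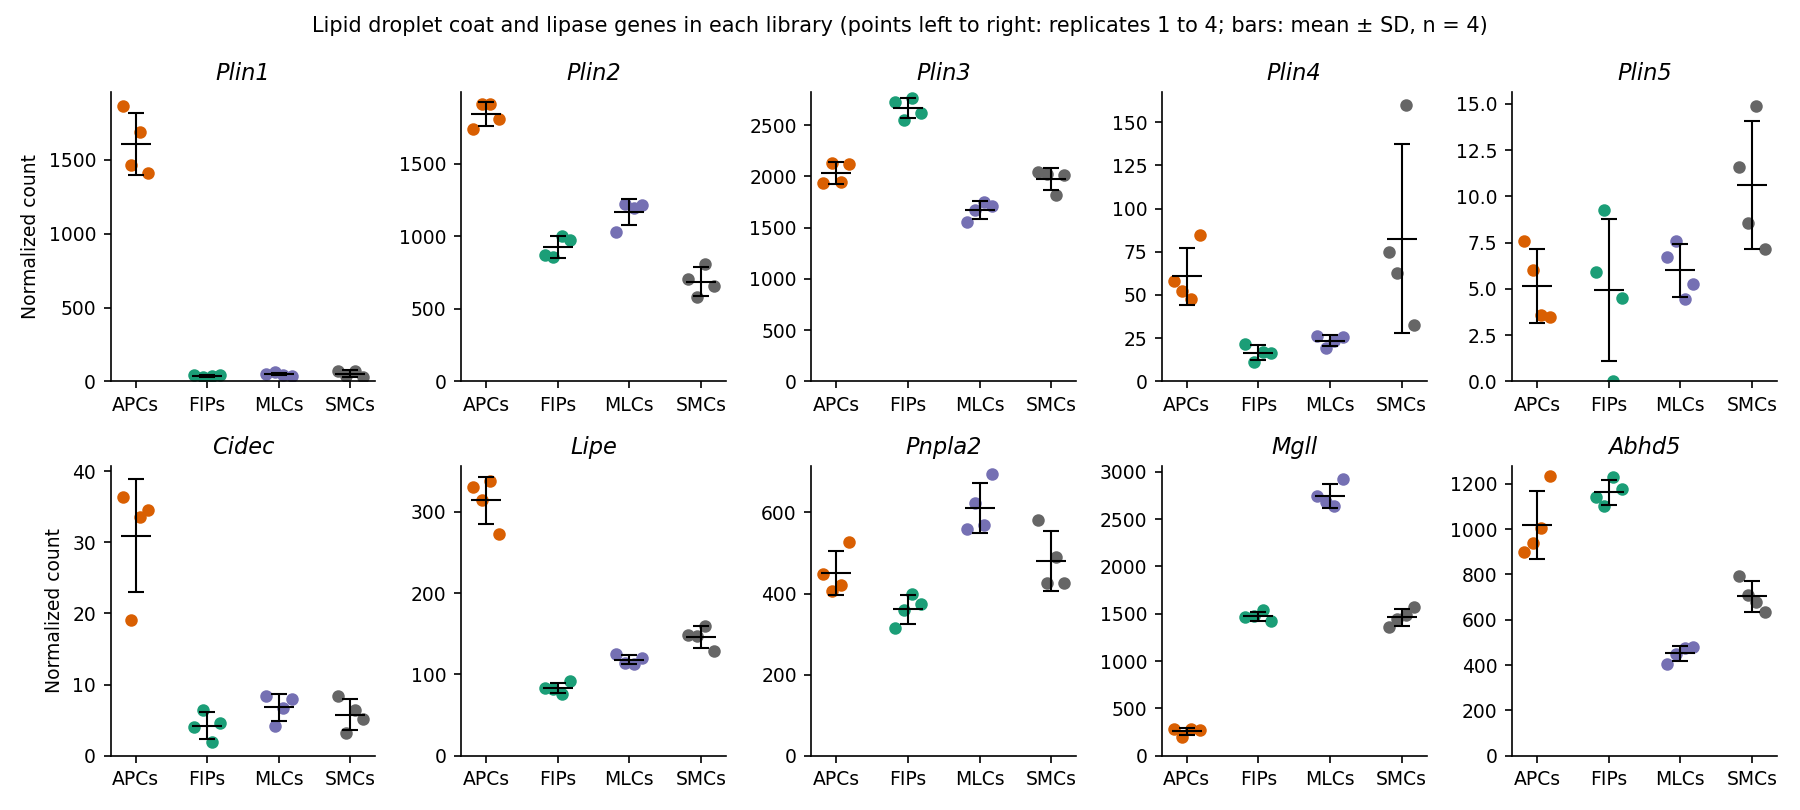
Normalized counts (linear axes from 0) of the 10 coat and lipase genes in each of the 16 libraries, grouped by population; points are replicates 1 to 4 from left to right and bars the mean ± SD (n = 4). Plin1, Cidec and Lipe stand highest in the APCs, Mgll is lowest there and highest in the MLCs, and Plin3 spans the narrowest range.

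Plin1 was the member with the largest difference between populations. Its normalized counts were 1867, 1466, 1686 and 1411 in APC replicates 1 to 4, against 40.6, 30.5, 38.2 and 45.3 in the FIPs. They were 51.9, 60.9, 45.0 and 39.6 in the MLCs and 73.7, 38.4, 68.3 and 31.7 in the SMCs. Every APC library was above every library of the other populations, and the other 3 populations overlapped one another. The gene (7:79721164-79732904, GRCm38, minus strand, protein coding) was 40.7-fold higher in APCs than in FIPs by limma (log2 5.35, SE 0.22, adjusted p = 6.911e-13), 32.1-fold higher than in MLCs (adjusted p = 1.351e-13) and 31.5-fold higher than in SMCs (adjusted p = 1.186e-12). Between FIPs, MLCs and SMCs the largest difference was 0.37 (log2, SE 0.22, adjusted p = 0.17 by limma). Bulk values cannot tell a population with fewer Plin1-expressing cells from one with less Plin1 RNA in each cell, and this holds for every gene here.

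Plin2, a coat protein of small droplets in most cell types, was well expressed everywhere and followed another order. It had 1741, 1913, 1913 and 1812 normalized counts in the APCs and 1031, 1223, 1194 and 1219 in the MLCs. It had 874, 856, 1002 and 977 in the FIPs and 706, 580, 813 and 656 in the SMCs. The order was APCs, MLCs, FIPs, SMCs, and the libraries of no pair of populations overlapped. Only APCs against SMCs passed the 2-fold limit, at 2.69-fold (log2 1.43, SE 0.09, adjusted p = 8.827e-11 by limma). APCs against FIPs, at 1.99-fold (log2 0.99, adjusted p = 2.161e-08), lay just under it, and it was called when 1 of 4 libraries was left out (APCs replicate 1 or 4, or FIPs replicate 3 or 4, log2 at most 1.03). Plin2 lies at 4:86626910-86670217 on the minus strand.

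Plin3, a soluble perilipin that binds newly formed droplets, varied least of the tested members. It had 2729, 2549, 2760 and 2615 normalized counts in the FIPs, 1936, 2133, 1947 and 2120 in the APCs, 2043, 2024, 1819 and 2012 in the SMCs and 1552, 1673, 1752 and 1714 in the MLCs. The FIPs stood above all others and the MLCs below, and APCs and SMCs overlapped and did not differ beyond their spread (adjusted p = 0.53 by limma). The widest difference, FIPs over MLCs, was 1.59-fold (log2 0.67, SE 0.06, adjusted p = 1.927e-09 by limma), so no comparison of Plin3 reached the 2-fold limit. Plin3 (17:56278962-56290511) shares its chromosome and strand with Plin4 (17:56100587-56109948) and Plin5 (17:56111597-56117606). Plin4 and Plin5 lie 1648 bases apart, and Plin3 a further 161355 bases away.

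Plin4, a coat of nascent droplets found mostly in fat cells, was high in 2 populations. Its values were 58.3, 52.4, 47.9 and 84.7 in the APCs and 74.8, 63.0, 160 and 32.7 in the SMCs, which overlapped. They were 21.8, 11.1, 17.2 and 16.3 in the FIPs and 26.0, 19.5, 23.6 and 25.5 in the MLCs, below every APC and SMC library. By limma Plin4 was 3.52-fold higher in APCs than in FIPs (log2 1.81, SE 0.34, adjusted p = 0.0002617) and 2.46-fold higher than in MLCs (adjusted p = 0.002469). It was also 4.17-fold higher in SMCs than in FIPs (log2 of FIPs over SMCs -2.06, adjusted p = 4.816e-05) and 2.92-fold higher than in MLCs (adjusted p = 0.0005919). APCs and SMCs differed by 0.25 (log2, SE 0.34, adjusted p = 0.56), higher in the SMCs, and by 0.14 the other way without SMCs replicate 3.

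The SMC libraries that were high in Plin4 were also high in the summed markers of fat cells, smooth muscle and mesothelium, though not in every marker. The summed level of 8 mature adipocyte markers outside the members (Adipoq, Lep, Retn, Cfd, Car3, Lgals12, Aqp7 and Pck1) was 1253, 621, 1753 and 476 in SMC replicates 1 to 4, the same order as Plin4. Adipoq, the adiponectin gene, was at 181, 83.2, 286 and 77.7 in the same libraries, and Plin1 was at 68.3 or above in replicates 1 and 3 and at 38.4 or below in the other two. The summed smooth muscle markers (14595, 13549, 15161 and 10030) had the same order of replicates. So had the summed mesothelial markers (13459, 12147, 15598 and 10326). The smooth muscle gene Acta2 (5235, 4170, 5858 and 2885) and the mesothelial gene Upk3b (4022, 3278, 4311 and 2503) shared this order. Other genes of the lists did not. Myh11 (1446, 1633, 1290 and 681) was highest in replicate 2 and Des (1583, 1374, 1422 and 1808) in replicate 4. Mesothelial Wt1 (2788, 2741, 3723 and 2842) was lowest in replicate 2, and the adipocyte marker Aqp7 (56.9, 52.3, 38.4 and 38.8) was highest in replicate 1. The adipocyte marker sum was 172 to 203 in the FIPs, 253 to 375 in the MLCs and 5438 to 6248 in the APCs, and 7 of the 8 markers had a mean of at least 10 in the APCs against 5 in the SMCs. Car3 made up most of the APC sum (a mean of 5147 out of 5849), while Cfd was the largest marker in the SMCs (499 out of 1026). Cfd was lower in APC replicates 1 to 3 (38.0, 10.1 and 12.9) than in any MLC (58.1 to 114) or SMC library (217 to 858). Without SMCs replicate 3 the Plin4 difference was still called against FIPs (log2 -1.67, adjusted p = 9.708e-05 by limma) and MLCs (log2 -1.16, adjusted p = 0.001845). The part of any of these cell types in the Plin4 values was not tested.

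**Figure D2:**
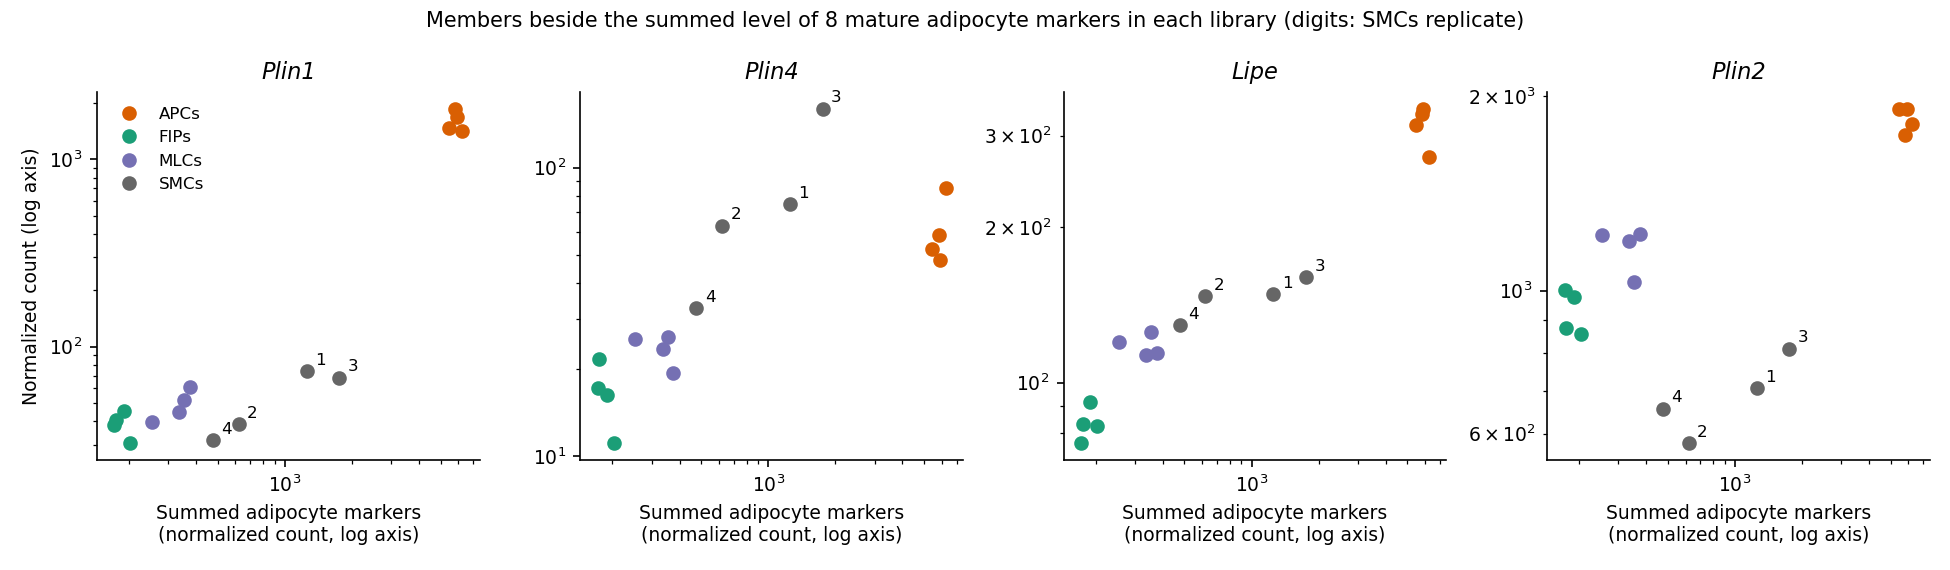
Normalized counts of Plin1, Plin4, Lipe and Plin2 (y axes, log scale) beside the summed normalized counts of 8 mature adipocyte markers (x axes, log scale) in the 16 libraries; digits number the SMC replicates. The 4 APC libraries lie at sums of 5438 to 6248, made up mostly of Car3. Among the SMCs Plin4 goes from 32.7 at a sum of 476 to 160 at a sum of 1753.

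Of the APC libraries, replicate 4 had the highest Plin4 value. It also held the highest Adipoq (398, others 171 to 239), Retn (48.4, others 26.2 to 39.3) and Cfd, the adipsin gene (453, others 10.1 to 38.0). Other adipocyte markers did not follow. Lgals12 was lowest there (154, others 181 to 287), Car3, Aqp7 and Pck1 lay within the range of the others, and Lep was at most 3.46 in any APC library. Plin1 (1411) and Lipe (273) in replicate 4 were the lowest of the APC libraries. Without APCs replicate 4 and SMCs replicate 3, all calls of Plin1, Plin4 and Lipe were still made.

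Plin5, the perilipin of tissues that burn fat, was near the limit of detection and was not tested. Its values were 11.6, 8.54, 14.9 and 7.15 in the SMCs, 6.70, 7.61, 4.43 and 5.28 in the MLCs, 7.61, 6.04, 3.57 and 3.46 in the APCs and 5.94, 9.25, 0 and 4.53 in the FIPs. From 0 to 11 reads lay behind each value, and the populations overlapped apart from SMCs replicates 1 and 3, which stood above all other libraries.

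Cidec, which joins droplets and lets them grow large, was low in all libraries and highest in the APCs. It had 36.3, 19.1, 33.6 and 34.6 normalized counts in the APCs (19 to 47 reads). It had 3.96, 6.47, 1.91 and 4.53 in the FIPs, 8.38, 4.23, 6.64 and 7.92 in the MLCs and 8.42, 3.20, 6.41 and 5.11 in the SMCs (2 to 10 reads in these 12 libraries). Every APC library was above all others, and the other 3 populations overlapped. By limma Cidec was 6.28-fold higher in APCs than in FIPs (log2 2.65, SE 0.38, adjusted p = 1.086e-05), 4.08-fold higher than in MLCs (adjusted p = 9.044e-05) and 4.77-fold higher than in SMCs (adjusted p = 5.19e-05). Cidec (6:113424634-113435760, minus strand) passed the filter only through the 4 APC libraries, so it could enter the test only as a gene high there, and with a pseudocount of 8 the fold against FIPs was log2 1.66. Of its relatives, Cidea did not exceed 4.27 in any library and Cideb did not exceed 6.70.

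The perilipins can be set beside one another only per length. Divided by kilobases of annotated exon (all GENCODE vM21 exons of a gene joined, which is only an approximation where transcripts differ), Plin1 made up 24.3% ± 3.08 (SD, n = 4) of the summed perilipin level in the APCs. It made up 0.846% ± 0.122 in the FIPs, 1.35% ± 0.277 in the MLCs and 1.51% ± 0.558 in the SMCs. In the APCs Plin2 (37.0%) and Plin3 (37.8%) had nearly equal shares. In FIPs and SMCs Plin3 was the main perilipin (71.7% and 69.8%), and in the MLCs Plin2 held 41.9% and Plin3 55.8%. Plin4 and Plin5 each stayed at 3.64% or less in every library.

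**Figure D3:**
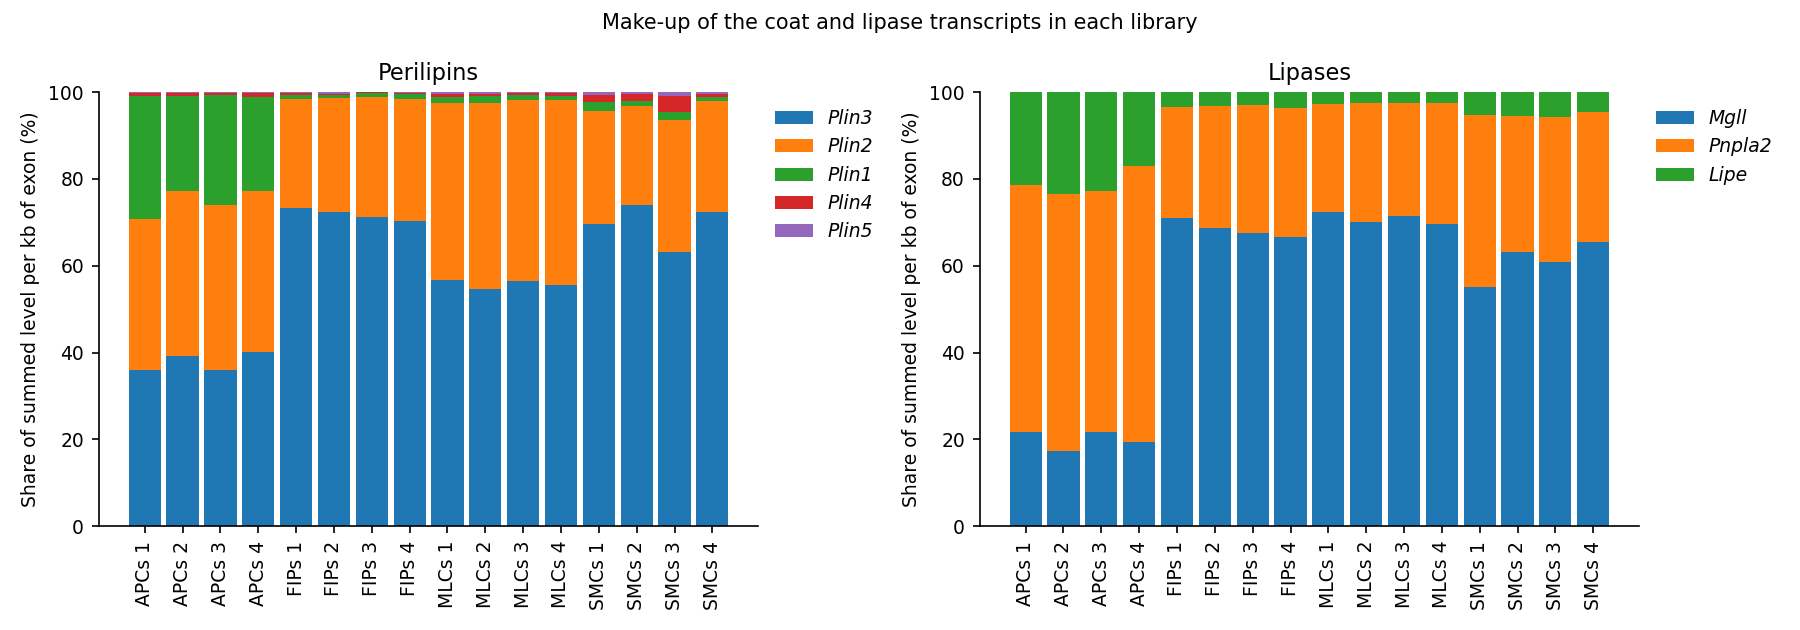
Share (%) of each perilipin (left) and each lipase (right) in the summed level per kilobase of exon, in each of the 16 libraries. Plin1 makes up 21.7 to 28.2% of perilipin level in the APC libraries and at most 2.05% elsewhere, and Mgll 17.3 to 21.7% of lipase level in the APC libraries and 55.0 to 72.3% elsewhere.

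Among the lipases, Lipe (hormone-sensitive lipase) was highest in the APCs. It had 330, 314, 338 and 273 normalized counts there, 148, 147, 160 and 129 in the SMCs, 125, 114, 113 and 120 in the MLCs and 83.1, 82.3, 76.4 and 91.6 in the FIPs. No populations overlapped, and the order was APCs, SMCs, MLCs, FIPs. Lipe was 3.73-fold higher in APCs than in FIPs by limma (log2 1.90, SE 0.11, adjusted p = 3.331e-11), 2.64-fold higher than in MLCs (adjusted p = 5.393e-10) and 2.14-fold higher than in SMCs (adjusted p = 6.177e-08). SMCs and MLCs differed by 0.30 (log2, adjusted p = 0.01726), and SMCs exceeded FIPs by 0.80 (log2, adjusted p = 3.292e-06), both short of 2-fold. Lipe (7:25379527-25398486, minus strand) shares 15.6% of its exon bases with an antisense gene, 4732471J01Rik, whose mean in the APCs was 6.82. The strand setting of the counting is not given in the sources used here, so reads of the shared stretch cannot be assigned.

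Mgll (monoglyceride lipase), which also degrades the endocannabinoid 2-arachidonoylglycerol, was lowest in the APCs and highest in the MLCs. Its values were 286, 199, 278 and 268 in the APCs and 1467, 1475, 1537 and 1418 in the FIPs. They were 1355, 1443, 1486 and 1570 in the SMCs and 2740, 2680, 2641 and 2922 in the MLCs. Every APC library was below all others and every MLC library above all others, while FIPs and SMCs overlapped and did not differ beyond their spread (log2 0.01, SE 0.09, adjusted p = 0.92 by limma). Mgll (6:88724412-88828360, plus strand) was 5.75-fold lower in APCs than in FIPs by limma (log2 -2.52, SE 0.09, adjusted p = 4.998e-14), 10.7-fold lower than in MLCs (adjusted p = 2.164e-17) and 5.71-fold lower than in SMCs (adjusted p = 2.857e-14). MLCs exceeded FIPs 1.86-fold (adjusted p = 1.944e-08) and SMCs 1.88-fold (adjusted p = 2.118e-08), under the 2-fold limit. The SMC libraries held the 8 mesothelial markers at 3.69 to 33.1% of their MLC level, with 6 at 8.77% or less, Wt1 at 25.5% and Nkain4 at 33.1%, and they held Mgll at 53.3%. Wt1 had 3023 ± 468 in the SMCs and 3996 ± 179 in the APCs, where Mgll was lowest. The part of mesothelial RNA in the SMC values of Mgll was not tested.

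Pnpla2 (adipose triglyceride lipase) differed little. It had 448, 407, 422 and 527 normalized counts in the APCs, 314, 359, 399 and 375 in the FIPs, 560, 624, 569 and 695 in the MLCs and 582, 427, 489 and 426 in the SMCs. The MLCs were highest and the FIPs lowest, and SMCs overlapped both MLCs and APCs. The widest difference was MLCs over FIPs at 1.69-fold (log2 of FIPs over MLCs -0.76, SE 0.11, adjusted p = 4.905e-06 by limma), and no comparison reached 2-fold. APCs and SMCs did not differ beyond their spread (adjusted p = 0.52). Pnpla2 lies at 7:141455188-141460743 on the plus strand.

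Abhd5, which activates Pnpla2, was not ordered like its lipase. It had 1144, 1100, 1229 and 1179 normalized counts in the FIPs and 898, 939, 1004 and 1236 in the APCs. It had 794, 708, 677 and 636 in the SMCs and 405, 449, 474 and 478 in the MLCs. FIPs and APCs overlapped (adjusted p = 0.087 by limma), SMCs lay below both, and MLCs lay below all. Abhd5 (9:122351616-122381524, plus strand) was 2.58-fold higher in FIPs than in MLCs (log2 1.36, SE 0.09, adjusted p = 6.364e-11 by limma) and 2.24-fold higher in APCs than in MLCs (adjusted p = 8.087e-10). It shares 15.95% of its exon bases with the antisense gene A730085K08Rik, whose APC mean was 5.62.

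Per kilobase of exon, Pnpla2 stood at 0.877 ± 0.0722 (SD, n = 4) of Abhd5 in the APCs, 0.613 ± 0.0485 in the FIPs, 1.35 ± 0.117 in the SMCs and 2.68 ± 0.216 in the MLCs. The ratio was below 1 in all APC and FIP libraries (0.541 to 0.984) and above it in all SMC and MLC libraries (1.19 to 2.87). Its place beside 1 rests on the joined exon lengths, which are only approximate where transcripts differ. The lipases also had different shares. Per kilobase, Pnpla2 held 58.8% ± 3.64 of summed lipase level in the APCs, Lipe 21.2% ± 2.94 and Mgll 20% ± 2.12, whereas Mgll held 68.5% ± 1.87 in the FIPs, 70.9% ± 1.23 in the MLCs and 61.1% ± 4.47 in the SMCs. The summed lipase level per kilobase was lowest in the APCs, at 253 ± 19.6, against 424 ± 17.2 in the FIPs, 472 ± 15.5 in the SMCs and 764 ± 43.0 in the MLCs. Only Mgll was lowest there, at a mean per kilobase of 50.8 against 288 to 541 elsewhere. Lipe was highest in the APCs (53.3, against 14.2 to 24.8), and Pnpla2 (149) was above its FIP level (120). The summed perilipin level was highest in the APCs, at 1421 ± 17.9, against 981 ± 39.2 in the FIPs, 792 ± 46.2 in the MLCs and 748 ± 24.1 in the SMCs.

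**Figure D4:**
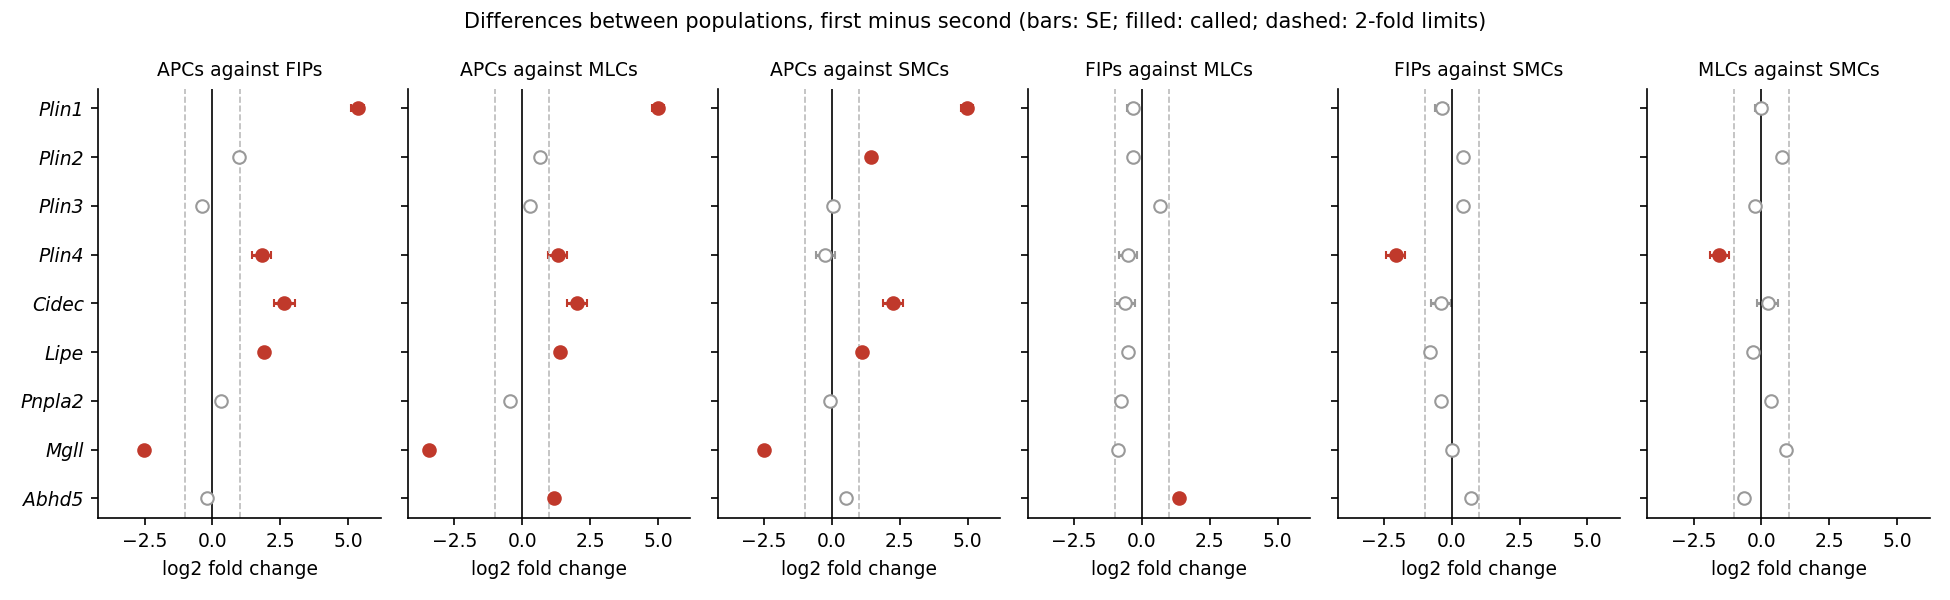
Log2 fold change (x axes, first population minus second, error bars SE from limma) of the 9 tested genes in the 6 comparisons; filled points were called and dashed lines mark 2-fold. Plin1 lies at 5.35, 5.01 and 4.98 in the 3 comparisons with APCs and Mgll at -2.52, -3.42 and -2.51.

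Most calls among these genes involved the APCs. The 3 comparisons with APCs share the APC libraries, so they are not independent of one another. Against FIPs, 4 of the 9 tested genes were called higher in APCs (Plin1, Lipe, Cidec and Plin4), where 5.22% of all tested genes were, and Mgll was called higher in FIPs, where 5.2% were. Against MLCs, 5 were called higher in APCs (the same 4 and Abhd5; 11.8% of all genes) and Mgll higher in MLCs (17.7%). Against SMCs, 4 were called higher in APCs (Plin1, Plin2, Lipe and Cidec; 3.79%) and Mgll higher in SMCs (13.5%). Cidec had to differ in these comparisons to be tested at all, and is no support for the counts. The median log2 fold change of the other 8 genes was 0.66, 0.91 and 0.29 in these comparisons, beside -0.01, -0.02 and -0.02 for all tested genes.

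Without the APCs, each comparison had 1 call. Between FIPs and MLCs it was Abhd5, higher in FIPs (12.5% of all tested genes), and 0 members were called higher in MLCs (18.6%) by limma, edgeR or DESeq2, with 4 higher there at an unadjusted p under 0.05. Between FIPs and SMCs it was Plin4, higher in SMCs (13.3%), with 0 called higher in FIPs (4.6%) by these tools and 3 at an unadjusted p under 0.05. Between MLCs and SMCs it was again Plin4, higher in SMCs (13.5%), with 0 called higher in MLCs (14.4%) by these tools and 3 at an unadjusted p under 0.05. Several members differed here with a small adjusted p but under 2-fold, such as Mgll, Pnpla2 and Plin3 above. When libraries were scaled to equal totals, Mgll and Pnpla2 were also called between FIPs and MLCs, Lipe between FIPs and SMCs, and Mgll between MLCs and SMCs.

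Of 15 genes of droplet assembly and the droplet surface other than the members, 13 could be tested. Between APCs and FIPs 2 were called higher in APCs (5.22% of all tested genes) and 1 in FIPs (5.2%), and at an unadjusted p under 0.05 there were 5 and 4. Cav1, the caveolin that forms caveolae and also reaches droplets, had 2092, 1570, 1992 and 2241 normalized counts in the APCs and 294, 346, 338 and 299 in the FIPs (log2 2.62, adjusted p = 1.23e-12 by limma). It was far higher in the MLCs, at 45808 ± 1934 (SD, n = 4). Fitm2, which helps droplets bud from the endoplasmic reticulum, had 281 ± 15.2 in the APCs and 117 ± 11.6 in the FIPs (log2 1.26, adjusted p = 4.463e-08). Hsd17b13, a droplet surface enzyme, was higher in the FIPs (32.2 ± 7.29 against 8.36 ± 1.57, adjusted p = 0.01197). It passed the filter only through the FIPs, since elsewhere only APCs replicate 2 (10.1) reached 10. As the 1 gene called higher in FIPs, it is no support for that count. Bscl2 (seipin), which acts where droplets form, differed by only 0.25 (log2, 841 ± 38.2 in APCs, 707 ± 30.7 in FIPs). The median of the list was 0.07, beside -0.01 for all genes.

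The inhibitors of lipolysis and the other lipases had 9 of 11 genes tested, and limma called 1 each way between APCs and FIPs (5.22% and 5.2% of all tested genes). With edgeR and DESeq2 each, 3 were called higher in APCs and 1 in FIPs. G0s2, an inhibitor of Pnpla2, was listed at 0 in all 16 libraries, and Hilpda, which also inhibits it, had 125 ± 24.7 in the APCs and 95.7 ± 11.8 in the FIPs (adjusted p = 0.064 by limma). Daglb, a diacylglycerol lipase that makes the monoglyceride Mgll degrades, had 246, 315, 297 and 282 in the APCs and 1571, 1535, 2138 and 1425 in the FIPs (log2 -2.53, adjusted p = 4.254e-12). It was 1712 ± 98.8 in the MLCs but 398 ± 71.5 in the SMCs, so the SMCs, high in Mgll, were nearer to the APCs in Daglb (log2 of APCs over SMCs -0.47, adjusted p = 0.003074). Dagla, the other diacylglycerol lipase of the list, was lowest in the MLCs (417 ± 10.9), where Mgll was highest. It was 687 ± 106 in the APCs, 966 ± 41.0 in the FIPs and 996 ± 78.6 in the SMCs. Abhd6, another monoglyceride lipase, was 99.3 ± 14.1 in the APCs, 91.7 ± 7.13 in the FIPs and 292 ± 24.4 in the MLCs. Pnpla3, a relative of Pnpla2, was higher in APCs than in FIPs (50.9 ± 14 against 18.2 ± 6.77, adjusted p = 0.004264). Against MLCs, 2 genes of the list were called higher in APCs (11.8% of all tested genes) and 4 in MLCs (17.7%). Lpl, the lipase that releases fatty acids from circulating triglyceride, was at 55358 ± 12236 in the APCs and 635 ± 130 in the MLCs (log2 6.44, adjusted p = 1.572e-17).

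Receptors and kinases that switch lipolysis on or off, and carriers of its products, made up a list of 20 genes, all tested: 9 were called higher in APCs than in FIPs (5.22% of all tested genes) and 0 lower (5.2%), by limma, with a list median of 0.58 beside -0.01 for all genes. The 0 also held with edgeR and DESeq2, and 3 genes were lower in APCs at an unadjusted p under 0.05. These were Irs1 (log2 -0.45, adjusted p = 5.224e-05 by limma), Gnas (log2 -0.24, adjusted p = 0.01545) and Prkacb (adjusted p = 0.03928). They passed the adjusted threshold and fell short of 2-fold. Among the 9, Hcar2 passed the filter only through the APCs, since elsewhere only SMCs replicate 1 (14.7) reached 10. Like Cidec, it is no support for the count. Adrb1, at most 12.8 in any library, passed only through APCs and SMCs together. Hcar1, a lactate receptor that restrains lipolysis, had 251, 235, 229 and 199 in the APCs and 14.8, 22.2, 22.0 and 20 in the FIPs (log2 3.48, adjusted p = 7.461e-11). Prkar2b, a regulatory subunit of protein kinase A, had 877 ± 41.8 and 183 ± 11.8 (log2 2.26, adjusted p = 2.611e-10). Pde3b, the phosphodiesterase through which insulin restrains lipolysis, had 908 ± 88.1 and 288 ± 19.8 (log2 1.65, adjusted p = 4.396e-10). The list also held the beta-adrenergic receptors. Adrb3, the receptor typical of fat cells, was low everywhere, at 63.4, 25.2, 30.7 and 46.7 in the APCs and 48.4, 59.8, 76.9 and 31.7 in the SMCs, which overlapped, against 12.8 ± 4.07 in the FIPs and 5.55 ± 0.989 in the MLCs. Prkaca and Prkacb, the catalytic subunits of the kinase, differed between APCs and FIPs by 0.04 and 0.15 (log2). The fatty acid carriers were not alike: Fabp4 was highest in the APCs (2002 ± 674, at most 525 ± 210 on average elsewhere), while Fabp5 was highest in the MLCs (313 ± 17.8, against 130 ± 34.6 in the APCs). Aqp7, the glycerol channel, was called higher in APCs than in FIPs and is also among the 8 adipocyte markers.

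**Figure D5:**
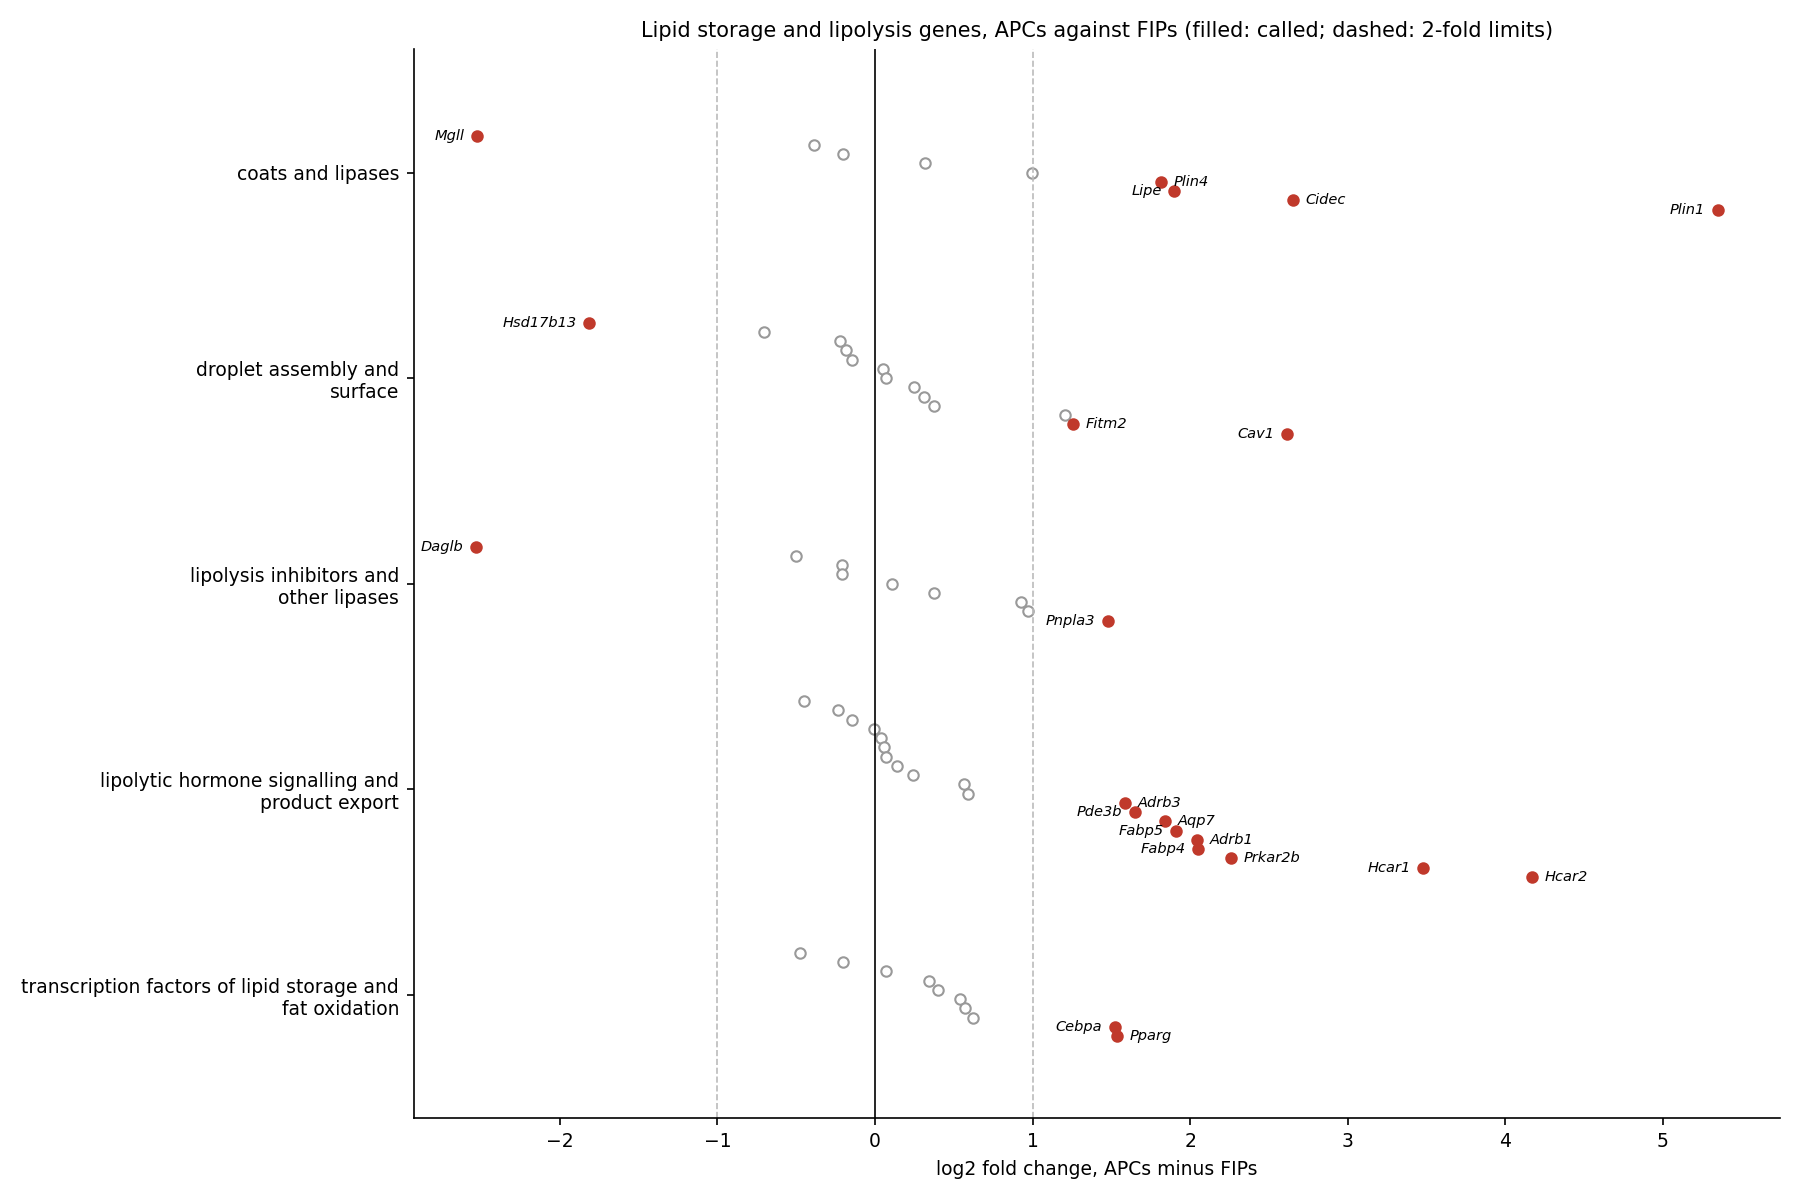
Log2 fold change of APCs over FIPs (x axis) for each tested gene of 5 lists (rows); filled, named points were called and dashed lines mark 2-fold. In the hormone signalling and export row 9 of 20 genes are filled, all on the APC side, and Plin1 at 5.35 lies farthest right of all genes shown.

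Of 10 transcription factors of lipid storage and fat oxidation, Pparg and Cebpa, the factors that drive fat cell differentiation, were called higher in APCs than in FIPs (5.22% of all tested genes). None was called lower (5.2%) by limma, edgeR or DESeq2, with 2 lower at an unadjusted p under 0.05. These were Foxo1 (log2 -0.47, adjusted p = 1.057e-05 by limma) and Tfeb (log2 -0.21, adjusted p = 0.0305). Both passed the adjusted threshold and fell short of 2-fold. Pparg had 1200, 1325, 1293 and 1311 in the APCs, 444 ± 47.7 in the FIPs, 110 ± 58.2 in the SMCs and 39.6 ± 5.92 in the MLCs. Cebpa had 3189 ± 246, 1110 ± 98.9, 811 ± 121 and 167 ± 35.0 in the same order. Both were thus several times higher in FIPs than in MLCs (log2 3.46 and 2.74), where Plin1 was not called different and had 38.7 ± 6.19 in FIPs and 49.4 ± 9.19 in MLCs.

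The genes whose log2 values were most like each member over the 16 libraries are given as a description, since the libraries of a population share their level. For Plin1 they were Car3 (Pearson r 0.99), Lgals12 (0.98) and Fam13a (0.97), the first a carbonic anhydrase abundant in fat cells, at 5147 in the APCs and 130 to 301 elsewhere on average. For Lipe they were Reep6 (0.98), Atp1b2 (0.96) and Mapk13 (0.96), and for Cidec Gpd1 (0.96), Mlxipl (0.95) and Tshr (0.94). Adipoq came closest to Plin4 (0.91), with 261 in the APCs, 157 in the SMCs, 35.0 in the MLCs and 12.5 in the FIPs. For Mgll they were Prss23 (0.99), Ehd4 (0.98) and Fndc1 (0.98), each lowest in the APCs and highest in the MLCs. For Abhd5 they were Tspan6, Glipr2 and Rab5b (all 0.98), each highest in the FIPs and lowest in the MLCs. Plin2 was closest to Adipor2 (0.96), Plin3 to Appl1 (0.99) and Pnpla2 to Dpysl5 (0.92), which had 792 in the MLCs and 180 or less elsewhere.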

How the data were processed

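Libraries were made from total RNA with a NEBNext Ultra II kit, per the labels' protocols. The authors deposited a table of normalized signal, reads per gene divided by 1 factor per library, for 16 libraries. The tools Trim Galore 0.4.1, DESeq2 1.6.3, featureCounts 1.4.6 and HISAT2 2.0.1 are listed in the submitters' processing notes, as are the builds mm10 and GRCm38, without their roles. The rule for multimapping reads, the annotation and the strand setting were not given in the sources used here. The 4 columns headed SMLCs were taken as the SMCs samples of the same number. Rows without a symbol (1275) held 0.0812 to 0.136% of each library and were kept.

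In each column the values above 0 were whole multiples of 1 step (100% within 0.01), which gave reads and depth. In FIPs replicate 1 and APCs replicate 2 the step was so near 1 that reads could hardly be told from the values, and both were kept out of count tests. Differences were tested with limma 3.58.1 under R 4.3.3 (trended eBayes, two-sided, pseudocount 1, all 16 libraries, 4 populations), checked on simulated data. The alternatives were pseudocounts of 0.1 and 8, no filter, equal totals, quantile normalization, only the 2 populations compared, a replicate block, each library left out, and, chosen after seeing the data, edgeR 4.0.16 and DESeq2 1.42.0 on the reads of 14 libraries and the test without the 2 shallowest libraries. Low values carry a large counting error.

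All 10 members are named. Of other lists, called genes were counted and up to 4 of the smallest adjusted p were named, with genes whose role is described. Likeness is the Pearson correlation over libraries, among genes with a mean of at least 100 in their highest population. Coordinates are RefSeq spans on GRCm38. The members and lists were chosen with earlier results of these data known. Lists had no test of their own.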

Additional observations from a re-analysis of the deposited data

Results flagged for a closer look

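In 3 of the 40 groups of 4 libraries checked, 1 library stood apart from the other 3 by Dixon's criterion, which chance alone meets in about 1 of 20 groups. Plin2 was 1031 in MLCs replicate 1, with 1194 to 1223 in the others. Plin3 was 1819 in SMCs replicate 3, the shallowest library, with 2012 to 2043 in the others. Cidec was 19.1 in APCs replicate 2, with 33.6 to 36.3 in the others.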

How the results depend on the processing

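Of 54 differences of single members between populations, 19 were called, and all 19 were called in the same direction in every alternative that could test them. Cidec could not be tested when an APC library was left out, because it then failed the filter. It entered the test only as a gene high in the APCs, so its calls among the 19 are no support for that count. Calls were gained for 5 differences. With equal totals the members called rose from 1 to 3 between FIPs and MLCs (Mgll -1.23 and Pnpla2 -1.09, log2), to 2 between FIPs and SMCs (Lipe -1.02) and to 2 between MLCs and SMCs (Mgll 1.02). Plin2 was called between APCs and FIPs with equal totals (1.24) and quantile normalization (1.05). Equal totals moved the median of all genes by 0.24 (APCs against FIPs), -0.34 (FIPs against MLCs), -0.22 (FIPs against SMCs) and 0.12 (MLCs against SMCs). Relative to it, these differences were Mgll -0.90, Pnpla2 -0.76, Lipe -0.80, Mgll 0.91 and Plin2 0.999. Quantile normalization moved the median by 0.13 (APCs against MLCs) and 0.12 (FIPs against MLCs). The share of calls higher in the first population went from 50.1 to 67.6% (APCs against FIPs) and 40.2 to 28.3% (FIPs against MLCs) with equal totals, and from 22.0 to 42.8% (APCs against SMCs) and 25.7 to 45.1% (FIPs against SMCs) with quantile normalization. Called values moved by over 1.5-fold for Cidec with a pseudocount of 8 (1.66, 1.38 and 1.48 against FIPs, MLCs and SMCs) and with quantile normalization (2.97 against SMCs), and for Plin4, FIPs against SMCs, with quantile normalization (-1.45). Of the 35 uncalled differences, 10 changed sign in some alternative and stayed uncalled. The cause of these shifts was not tested.

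The replicate numbers are shared across populations, but the labels do not say what a number marks. Deviations from the population means correlated above 0.1 in 6 of 24 same-numbered pairs, with a median of 0.0595 (-0.019 in other pairs), and in 32 of 48 cases a library correlated best with its own number. Those cases use each correlation from both sides. The highest correlation of all, 0.221, was between APCs replicate 1 and FIPs replicate 2, against at most 0.171 in same-numbered pairs. The correlations by number are only a hint of a shared origin from the data, not from the design, and the numbers were not used as pairs. With a replicate block 1567 genes were called between APCs and FIPs (1566 without), and the members called were 5, 6, 5, 1, 1 and 1 in the 6 comparisons, as without it.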
